A study of Arabidopsis thaliana with 18 samples.

Results

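In salt-stressed Arabidopsis thaliana, leaves treated for 1 day with MEA, the methanol extract of Ascophyllum nodosum, a brown seaweed, were compared with leaves of salt-stressed plants treated with the solvent alone. The comparison took 3 arrays titled MEA with NaCl on day 1 and 3 arrays whose source name is NaCl on day 1, which makes 6 of the 18 arrays in the series. In both groups the plants were 2 weeks old and had been held in 150 mM NaCl for 24 hours before treatment. The reference plants then received 0.1% aqueous methanol, per the labels' protocols, and the MEA plants received the methanol extract, for which the labels give no dose. No group without salt was analysed here, so a response to salt that both groups have in common does not appear in the difference. The labels of the reference arrays conflict: by source name they are NaCl without an extract, but title and description name the ethyl acetate sub-fraction (EAA). The source name was followed, and every difference from the reference rests on that choice. The 3 arrays of leaves given EAA after the same salt treatment on day 1 entered the estimate of the spread, so that 9 arrays in 3 groups measured it. Samples of a group are titled biological replicates, with no word on separate plantings, so a p-value measures the spread between samples as labelled.

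Extracts of Ascophyllum nodosum are used in agriculture as biostimulants and are applied to crops exposed to salt, drought or cold. In Arabidopsis, salt stress raises abscisic acid, which induces dehydrins and other late embryogenesis abundant proteins, osmolyte synthesis and antioxidant enzymes, while sodium is moved into the vacuole by exchangers driven by proton pumps. Jasmonate signalling and salicylate signalling, which steer defence against wounding, insects and pathogens, are also engaged by many biostimulants and by salt.

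The 6 arrays were close to one another. Over probe sets (not independent of each other) the reference arrays correlated with each other at 0.985 to 0.992 and the MEA arrays at 0.986 to 0.993, while the correlation between a MEA array and a reference array was 0.982 to 0.992. The median SD of a probe set over 3 arrays was 0.134 on the log2 scale in the reference, 0.137 with MEA and 0.126 with EAA. As a sign of RNA quality, the 3' probe set of actin stood above its 5' probe set by 1.67 to 2.03 in the reference and by 1.63 to 1.82 with MEA. The leaf markers chosen for a tissue check are unnamed here, but 7 nuclear genes of the photosystems had mean log2 signals of 8.65 to 13.08, and PSAE-1, a subunit of photosystem I, stood at 13.12 in the reference and 13.04 with MEA. PYK10, a beta-glucosidase abundant in roots, read 3.41 to 3.97 on the reference arrays and 2.98 to 3.24 on the MEA arrays, all under the filter of 3.98. In whole leaves, fewer cells of a type and less RNA per cell cannot be told apart.

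One day after MEA, 1 of 13648 probe sets that passed the filter on low signal differed from the reference at an adjusted p under 0.05, a share of 0.00733%, and it was higher with MEA. Of all probe sets, 1010 (7.4%) had an unadjusted p under 0.05, 358 of them higher with MEA (2.62%) and 652 lower (4.78%). The test was limma's moderated test with Benjamini-Hochberg adjustment over the 13648 probe sets, and differences below are MEA minus reference on the log2 scale. The single probe set, 264511_at, is unnamed here. Its log2 signal was 8.08, 7.66 and 7.48 on the reference arrays and 9.02, 9.24 and 8.81 on the MEA arrays. Every MEA array lay above every reference array. Its level rose by 1.28 (SE 0.15, n = 3 per group, adjusted p = 0.020), which is 2.43-fold with a 95% interval of 1.93 to 3.06. The EAA arrays read 9.07, 9.35 and 9.09, and EAA differed from MEA by 0.15 (adjusted p = 0.827). The call did not hold without reference replicate 3, without EAA replicate 1 or 3, or without MEA replicate 1 or 2, where the adjusted p ran up to 0.147.

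A looser threshold, an adjusted p under 0.1, was passed by 18 probe sets (0.132%), 7 higher (0.0513%) and 11 lower (0.0806%) with MEA. All 18 had MEA arrays wholly above or wholly below the reference arrays, where 11.7% of all probe sets did (4.37% above and 7.36% below). Selection by a small p favours such a separation, so it is no added support. Their differences were 0.51 to 1.35 in size, which is 1.43-fold to 2.56-fold. Only 6 of them pair with a single gene in the platform annotation, 5 lower and 1 higher, and none of these 6 passed 0.05 in the fit over all 9 arrays.

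The 5 named genes that stood lower include a pair tied to plant defence hormones. JRG21 (AT3G55970), whose RefSeq name is jasmonate-regulated gene 21, encodes an oxygenase that hydroxylates and so inactivates jasmonic acid. It read 7.67, 8.37 and 8.23 on the reference arrays and 6.59, 6.97 and 7.19 on the MEA arrays, with no overlap. The difference was -1.17 (SE 0.19, n = 3 per group, limma adjusted p = 0.0744), or 0.44 of the reference level with a 95% interval of 0.34 to 0.59. The EAA arrays read 7.51, 7.45 and 7.82, above the MEA arrays and partly within the reference range. BSMT1 (AT3G11480), a methyltransferase that makes volatile methyl salicylate and methyl benzoate and is itself inducible by jasmonate, read 5.89, 6.06 and 6.71 in the reference and 4.94, 5.11 and 5.40 with MEA. These groups did not overlap either, and the difference was -1.07 (SE 0.20, 95% interval -1.49 to -0.64, limma adjusted p = 0.0991).

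AT4G17470, a gene of the palmitoyl-protein thioesterase family, read 8.18, 8.07 and 8.32 in the reference and 6.82, 7.63 and 7.24 with MEA. Its reference arrays were close together and its MEA arrays spread wider, all of them lower, with a difference of -0.96 (SE 0.17, limma adjusted p = 0.0991). AT2G44500, an O-fucosyltransferase family gene, read 5.68, 5.80 and 5.71 in the reference and 5.01, 4.90 and 5.07 with MEA. Both groups were tight, and the difference was -0.74 (SE 0.13, 95% interval -1.01 to -0.46, limma adjusted p = 0.0991). AT3G61930 read 4.38, 5.67 and 5.16 in the reference and 3.52, 3.83 and 3.80 with MEA. Its MEA signals lay under the filter value, near the low end of the array, so the size of its difference of -1.35 (SE 0.24) is uncertain. Its mean was 5.07 in the reference, 3.72 with MEA and 3.96 with EAA, so it passed the filter of 3.98 only through the reference. The low signal was not particular to MEA: EAA differed from the reference by -1.11 (limma adjusted p = 0.042) and from MEA by 0.24 (limma adjusted p = 0.813).

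Reference replicate 1 was the lowest reference array for JRG21, BSMT1 and AT3G61930. Without that array all 3 passed 0.05, JRG21 with -1.38 (limma adjusted p = 0.0117), BSMT1 with -1.23 (adjusted p = 0.0435) and AT3G61930 with -1.70 (adjusted p = 0.0019). Leaving out the lowest reference array enlarges a fall by construction, so this is no added support. Without reference replicate 3 JRG21 was at -1.10 and BSMT1 at -0.82 (limma adjusted p = 0.179 for both). Without reference replicate 2 AT3G61930 was at -1.05 (limma adjusted p = 0.114). Over the alternatives JRG21 passed 0.05 in 4 of 21, BSMT1 in 2 of 21 and AT3G61930 in 3 of 20. Without reference replicate 1, 16 probe sets passed 0.05, and CML41 (AT3G50770), a calmodulin-like calcium sensor, was among them. CML41 read 7.02, 8.99 and 7.83 in the reference and 6.70, 6.85 and 6.49 with MEA. The MEA arrays were close together and the reference arrays far apart. Its difference of -1.27 (95% interval -2.01 to -0.52, limma adjusted p = 0.321) became -1.73 (adjusted p = 0.0348) without reference replicate 1 and -0.74 without reference replicate 2.

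Other named genes with lower signals and groups that did not overlap did not pass 0.1. JAL23 (AT2G39330), a jacalin-related lectin, read 8.21, 9.02 and 8.37 in the reference and 7.64, 7.63 and 7.49 with MEA. The MEA arrays were nearly equal, and the difference was -0.94 (95% interval -1.39 to -0.49, limma adjusted p = 0.194). AT2G34810, a berberine bridge enzyme-like oxidase gene, read 9.17, 9.60 and 9.30 in the reference and 8.71, 8.78 and 8.85 with MEA, a difference of -0.57 (limma adjusted p = 0.128). AT1G54020, a GDSL-type lipase gene, had a larger difference of -1.36, from 6.30, 6.88 and 6.75 to 5.86, 5.09 and 4.89, but its arrays spread more (SE 0.30, limma adjusted p = 0.193).

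The only named gene that stood higher at an adjusted p under 0.1 was AT3G05640, a protein phosphatase of the PP2C family, a family that includes negative regulators of abscisic acid signalling. It read 7.78, 7.89 and 7.58 in the reference and 8.30, 8.42 and 8.22 with MEA. All 3 MEA arrays were above the reference arrays, and the difference was 0.56 (SE 0.10, 95% interval 0.34 to 0.79, limma adjusted p = 0.0991). AT1G20030, a thaumatin family gene, followed with 0.62 (limma adjusted p = 0.109), from 7.73, 7.66 and 7.54 to 8.16, 8.45 and 8.19. LEA4-5 (AT5G06760), a late embryogenesis abundant protein that protects other proteins during dehydration, read 5.37, 6.31 and 5.30 in the reference and 6.93, 6.57 and 6.37 with MEA. Its groups did not overlap, though the highest reference array came within 0.1 of the lowest MEA array, and the difference was 0.96 (SE 0.23, 95% interval 0.46 to 1.46, limma adjusted p = 0.233). The rest of the 10 named genes with the smallest p among rises without overlap had differences of 0.43 to 0.83. They included AT5G15950 (0.63), an S-adenosylmethionine decarboxylase of polyamine synthesis, and AT1G48100 (0.71), a polygalacturonase of the cell wall (limma adjusted p = 0.243 for both). These 2 rises were not particular to MEA: EAA differed from the same reference by 1.10 (limma adjusted p = 0.0046) and 1.01 (limma adjusted p = 0.013). Also among them were AT2G41190 (0.83, with EAA at 0.38), an amino acid transporter family gene, and CCT2 (0.43), an enzyme of phosphatidylcholine synthesis.

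**Figure D1:**
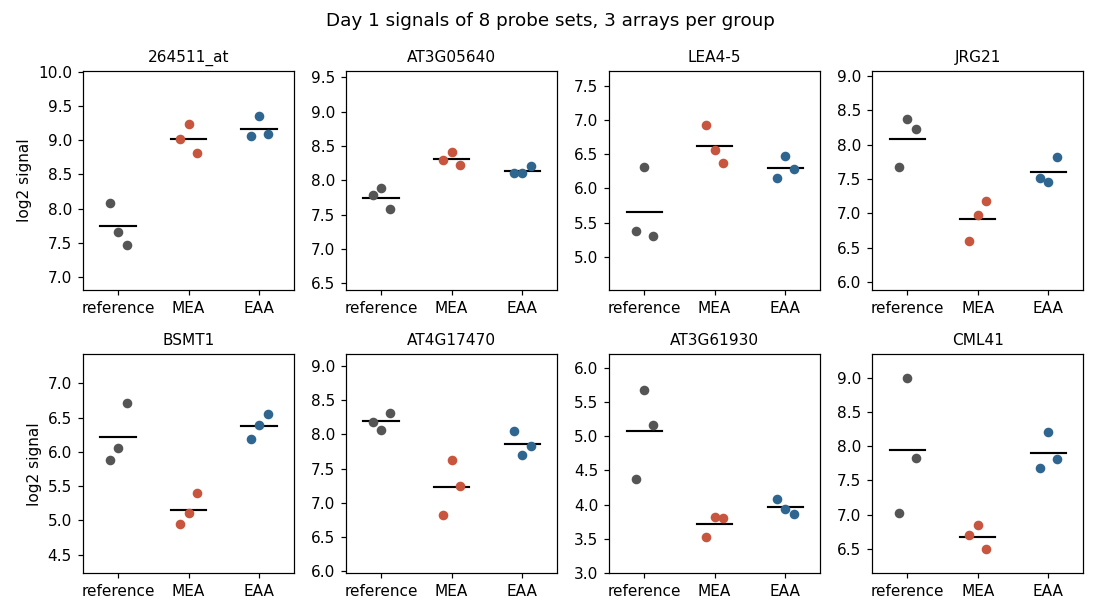
Log2 signal (vertical axis) of 8 probe sets on the 3 reference, 3 MEA and 3 EAA arrays of day 1, 1 point per array with the group mean as a bar; the vertical axes differ in their origin. Every MEA array lies above the reference arrays for 264511_at, AT3G05640 and LEA4-5 and below them for the other 5, and the reference arrays of CML41 run from 7.02 to 8.99.

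The size of change that could have been missed follows from the spread over the 9 arrays. A probe set's 95% interval for MEA minus reference extended by a median of 0.27 to either side, which is 1.21-fold, and by 0.43 (1.35-fold) or less for 95% of probe sets. Of the 13648 intervals, 13450 (98.5%) lay within 2-fold in both directions, and 12154 (89.1%) lay within 1.5-fold. For these probe sets a larger difference lies outside the 95% interval of that probe set. In the other 198 the interval reached 2-fold, 152 on the lower side and 46 on the higher side, and none lay wholly past it. The differences themselves were small: the middle 90% ran from -0.29 to 0.23 with a median of -0.02, and 26 probe sets (0.191%) differed by more than 1, 22 of them lower with MEA. These intervals hold for 1 probe set at a time and are not adjusted for the number of probe sets.

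How large a true change must be to pass is a stricter question than the interval answers. With 3 arrays per group and the median SE of 0.126, a change of 0.38 (1.3-fold) had an 80% chance of reaching an unadjusted p under 0.05. The cutoff after adjustment depends on how many probe sets pass. If 100 passed, the change found with 80% power was 0.73 for the median probe set (1.66-fold), and 0.58 to 1.00 between the 10th and the 90th percentile. If a single probe set passed, which was the outcome here, it was 1.14 (2.2-fold), and 0.90 to 1.55 between those percentiles. At that cutoff a 2-fold change would have been found with at least 80% power in 24.2% of probe sets, against 89.7% at the cutoff for 100 calls. A change in a few genes could therefore have gone uncalled, for the median probe set also a change of 2-fold. This holds even though most of the 95% intervals lay within 2-fold. In the 198 probe sets whose interval reached 2-fold, a larger change is not bounded by the interval either.

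Sensitivity depended on signal. Probe sets were divided by mean signal into 3 equal classes. In the low class (3.98 to 5.82), the change found with 80% power at the cutoff for 1 call was 1.25, in the middle class it was 1.14, and in the high class (7.41 to 13.76) it was 1.00. AT3G61930 and the defensin gene PDF1.2 belong to the low class and the photosystem genes to the high class. In the same fit, 195 probe sets (1.43%) passed an adjusted p under 0.05 for EAA against the same reference, with differences of 0.42 or more in size and a median of 0.70. The number of arrays and the estimate of the spread were the same for both extracts, and both comparisons share the 3 reference arrays.

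**Figure D2:**
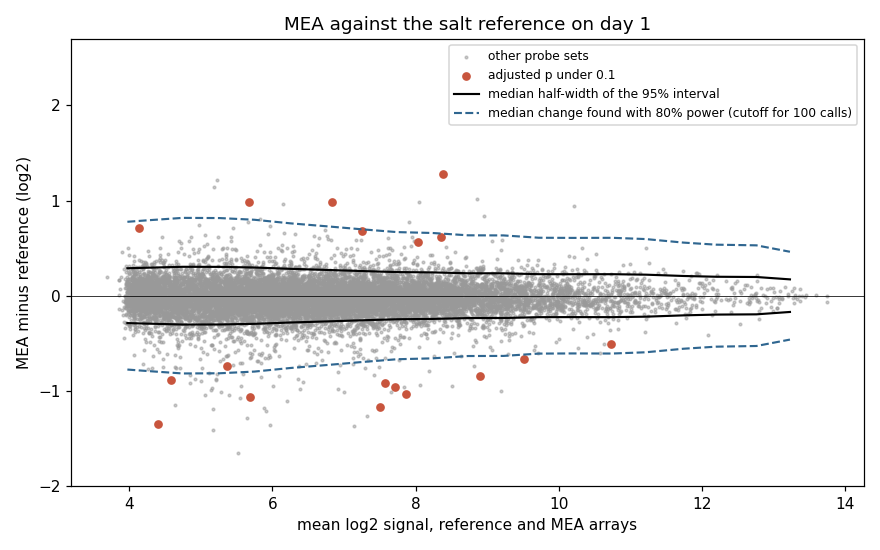
MEA minus reference (vertical axis, log2) against the mean log2 signal of the 6 arrays (horizontal axis), 1 point per probe set, with the 18 probe sets at an adjusted p under 0.1 as large red points. The solid lines mark the median half-width of the 95% interval at each signal and the dashed lines the median change found with 80% power at the cutoff for 100 calls; both narrow toward high signal, and most points lie inside the solid lines.

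**Figure D3:**
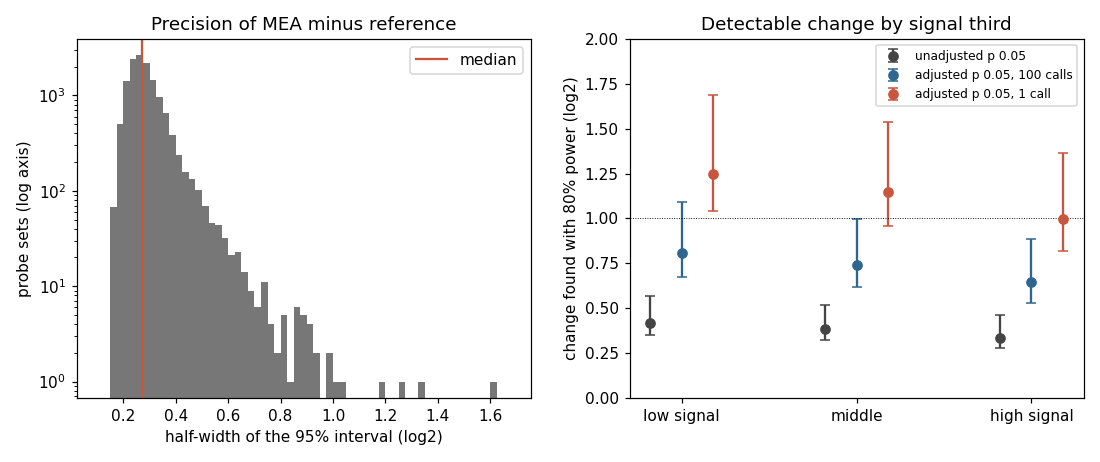
Left, the number of probe sets (log axis) by the half-width of the 95% interval in log2 units, with the median of 0.27 as a red line. Right, the change found with 80% power (log2) in the low, middle and high signal class, as the median with bars from the 10th to the 90th percentile; at the cutoff for 1 call the medians are 1.25, 1.14 and 1.00, and the dotted line marks a 2-fold change.

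Genes of the salt response and of other pathways were then read by role. The 38 lists named 2049 genes, of which 465 had a probe set that pairs with 1 gene and 305 passed the filter. None of the 305 passed an adjusted p under 0.05, where 0.00733% of all probe sets did, and 1, BSMT1, passed 0.1. An unadjusted p under 0.05 was met by 17 higher and 24 lower among the 305, which is 13.4% of them, against 6.77% of the 7264 genes that could be read. The lists were drawn up with earlier results of these data known, so this share is a description. For 288 of the 305 the 95% interval lay within 2-fold, which is 94.4%, against 98.8% of the 7264 genes. A list below with all its genes within 2-fold is therefore near the share over all genes.

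Of 8 measured abscisic acid and dehydration genes, none passed, and their median difference was 0.17 against -0.02 over all 7264 genes; over the alternative settings it ran from 0.04 to 0.32. COR15A, a chloroplast protein that stabilises membranes in cold and drought, stood at 12.78, 12.69 and 12.76 in the reference and 12.76, 12.80 and 12.69 with MEA. The 6 arrays were interleaved, and the difference of 0.01 had a 95% interval of -0.16 to 0.18. The dehydrins COR47 and LTI30 differed by 0.16 (-0.08 to 0.40) and 0.24 (-0.05 to 0.53). LEA4-5, described above, and DI21, a drought-induced gene at 0.65 (0.12 to 1.18), had wider intervals that reached past 2-fold. In DI21 the difference came with 1 MEA array at 7.39, while the others read 6.31 and 6.23 and the reference arrays read 5.78, 6.25 and 5.96.

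Osmolyte synthesis and ion transport were mostly unread: 2 of 47 osmolyte genes and 5 of 69 ion transport genes in the lists could be measured. These few showed small differences with narrow intervals. ALDH10A8 and ALDH10A9, aldehyde dehydrogenases of glycine betaine synthesis in other plants, differed by -0.14 (-0.33 to 0.05) and -0.01 (-0.19 to 0.17). VHA-A2 and VHA-A3, subunits of the vacuolar proton pump that drives sodium into the vacuole, differed by -0.12 (-0.33 to 0.08) and 0.02 (-0.18 to 0.21). All 5 measured ion transport genes had intervals within 2-fold, and their median difference was 0.10, or -0.01 without MEA replicate 3. The upper end of the VHA-A3 interval is a 1.16-fold change.

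Among 9 antioxidant genes the median difference was -0.10, and 8 intervals lay within 2-fold. Glutathione reductase GR differed by 0.11 (-0.10 to 0.32), and VTC4, an enzyme of ascorbate synthesis, by 0.33 (0.10 to 0.57, limma adjusted p = 0.522). MSRB9, a methionine sulfoxide reductase that repairs oxidised proteins, read 5.30, 5.51 and 6.54 in the reference and 5.04, 4.28 and 4.98 with MEA. Every MEA array was lower, and the difference was -1.02 (-1.83 to -0.20, limma adjusted p = 0.557). MSRB6 differed by -0.44 (-0.82 to -0.05).

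The defence hormone list held the widest intervals, with a median half-width of 0.51 and 2 of 6 genes bounded within 2-fold. PDF1.2, a plant defensin induced by jasmonate with ethylene, read 3.91, 5.13 and 4.82 in the reference and 5.14, 7.05 and 5.32 with MEA. The groups just separated, and the difference of 1.21 had an interval of -0.12 to 2.55 (limma adjusted p = 0.731). Its near-identical paralog PDF1.2b differed by 1.14 (-0.06 to 2.33), and the arrays may not tell the pair apart. BSMT1, in the same list, lay in the opposite direction.

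Of 5 measured auxin genes none passed and the median was -0.34, with -0.37 to -0.30 over the alternative settings. GH3.3, an enzyme that conjugates auxin to amino acids, read 6.45, 7.45 and 6.32 in the reference and 5.86, 6.16 and 5.98 with MEA, a difference of -0.74 (-1.28 to -0.21). IAGLU, a glucosyltransferase of auxin, differed by -0.64 (-0.98 to -0.31, limma adjusted p = 0.233). In both genes every MEA array lay under every reference array. The transcriptional repressor IAA18 differed by -0.34 (-0.56 to -0.13).

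All 10 measured autophagy genes stood lower with MEA, where 4053 of all 7264 genes did. Their median was -0.17 (-0.26 to -0.13 over the alternative settings) and none passed the threshold. The shift was not particular to MEA: the list's median was -0.16 for EAA against the same reference and 0.05 for EAA against MEA. ATG8E, one of the ubiquitin-like proteins that decorate the autophagosome membrane, read 7.32, 7.08 and 7.00 in the reference and 6.60, 6.60 and 6.71 with MEA. Its groups did not overlap, and the difference was -0.49 (-0.78 to -0.21, limma adjusted p = 0.303). ATG8F and ATG8H differed by -0.20 (-0.41 to 0.01) and -0.43 (-0.82 to -0.03). Every interval in the list lay within 2-fold. Of the 9 other members of this list than ATG8E, none had non-overlapping groups, and the members of the ATG8 family are similar in sequence.

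Of the photosynthesis lists, the 7 nuclear photosystem genes had narrow intervals, with a median half-width of 0.19 against 0.27 over all 7264 genes. It was 0.28 for the chloroplast-encoded genes and 0.27 for the chlorophyll synthesis genes, about the value over all genes. All 68 chloroplast-encoded genes had intervals within 2-fold, where 98.8% of all genes did. Their median difference was 0.03 (-0.02 without reference replicate 2 or without MEA replicate 1), with a range of -0.24 to 0.32. Of these genes 42 stood higher, where 3211 of all 7264 genes did. The largest was psbB, which encodes the CP47 antenna protein of photosystem II, at 0.32 (0.10 to 0.55). The arrays were labelled through poly(A) priming, per the labels' protocols, and chloroplast transcripts are largely without stable poly(A) tails, a limit on what these signals measure. The 7 nuclear photosystem genes had a median of 0.08. Among the 7 chlorophyll synthesis genes, PORB, a protochlorophyllide oxidoreductase, differed by 0.28 (0.04 to 0.53), CHLI2, a magnesium chelatase subunit, by 0.29 (0.03 to 0.56), and the median was 0.06.

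Sugar and starch genes gave mixed values. SAG29, a SWEET sugar exporter that rises in senescing leaves, read 6.12, 6.69 and 6.75 in the reference and 6.09, 5.88 and 5.05 with MEA. Its MEA arrays were spread over a log2 unit but all lay lower, and the difference was -0.84 (-1.36 to -0.33, limma adjusted p = 0.357). SWEET13 differed by 0.41 (0.10 to 0.72) and SWEET11 by -0.02 (-0.35 to 0.30). The alpha-amylase AMY1 differed by -0.58 (-1.18 to 0.02), with reference replicate 2 at 8.54 and the other reference arrays at 7.24 and 7.35. The plastid enzyme DPE1 of starch breakdown differed by 0.17 (-0.06 to 0.40). The starch list's median of 0.17 became -0.01 without MEA replicate 1.

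Of the cell wall genes, all 35 measured members had intervals within 2-fold, with a median difference of 0.01. The largest differences were those of TBL37 (-0.56, -0.86 to -0.25), of a family that acetylates wall polysaccharides, and XTH32 (0.50, 0.07 to 0.92), which cuts and rejoins xyloglucan. All 8 tubulin and actin genes, all 17 ubiquitin genes, all 11 cytochrome P450 genes and all 7 glutathione transferase genes also lay within 2-fold, with medians of -0.05, -0.11, -0.06 and -0.03. Of 26 UDP-glycosyltransferase genes 24 did, with a median of -0.06. WRKY53, a regulator of leaf senescence, read 5.83 in both groups, with an interval of -0.41 to 0.42.

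**Figure D4:**
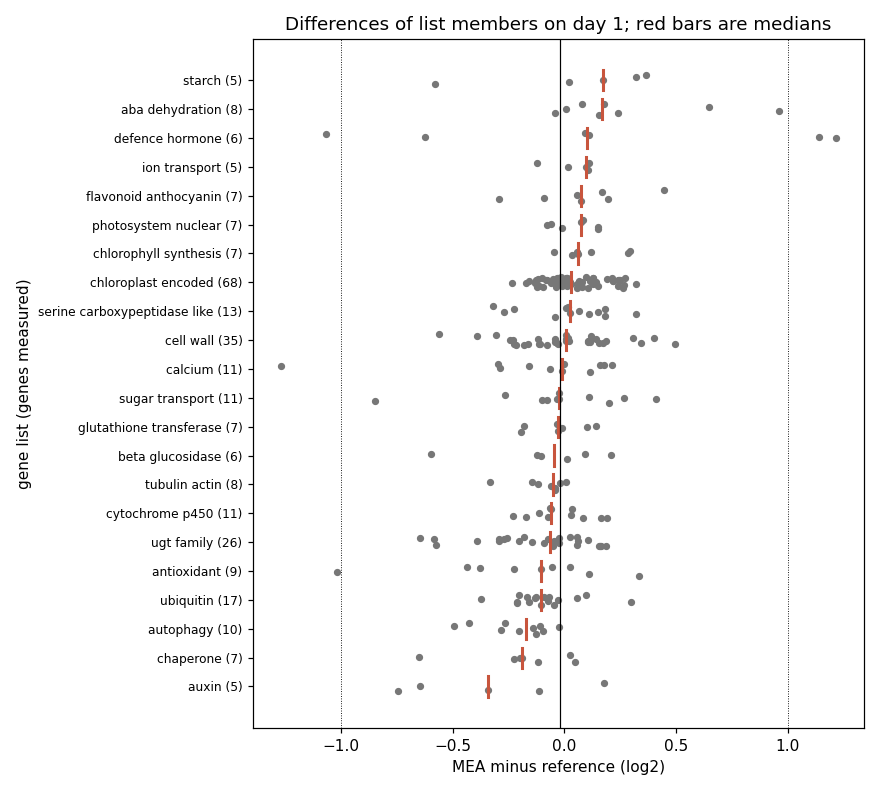
MEA minus reference (horizontal axis, log2) of each measured gene, 1 point per gene, in the 22 lists with 5 or more measured genes (number in brackets), with red bars at the list medians, a solid line at the median of all genes (-0.02) and dotted lines at a 2-fold change. List medians run from -0.34 for auxin to 0.17 for starch and for abscisic acid and dehydration, and 3 lists hold a point past a dotted line.

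In flavonoid and anthocyanin synthesis, where 6 of 7 measured genes were bounded within 2-fold, the reference arrays were unequal. DFR, the reductase that commits flavonoids to anthocyanin, read 6.37, 8.11 and 7.89 in the reference and 7.92, 6.94 and 8.11 with MEA. One array of each group was low, the groups overlapped, and the difference was 0.20 (-0.72 to 1.12). The anthocyanin glycosyltransferases UF3GT and AT4G14090 had the same low array in the reference, at 6.42 and 6.63 against 7.82 to 8.10 on the others. Without reference replicate 1 the list median of 0.08 became -0.34 and without reference replicate 2 it became 0.31, so its direction was not settled. The EAA arrays read 8.22, 9.34 and 9.31 for DFR, and EAA differed from MEA by 1.3 (0.39 to 2.22, limma adjusted p = 0.235).

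The 2 extracts were compared directly without the reference. Between EAA and MEA, 109 probe sets (0.799%) passed an adjusted p under 0.05, 76 higher with EAA and 33 higher with MEA, and 38 of the 109 pair with a gene. A further 20 genes, chosen with the EAA results of these data known, were read in both groups. Of these 20, 9 passed in EAA against MEA, where 37 of all 7264 genes did. Because the EAA results were known when the genes were chosen, this count is a description and no support. CSLA01, a glucomannan synthase family gene, read 6.25, 6.80 and 6.53 in the reference, 6.83, 6.51 and 6.69 with MEA, and 8.02, 7.96 and 8.15 with EAA. The EAA arrays stood apart from the others, which overlapped. MEA differed from the reference by 0.15 (-0.15 to 0.45), while EAA was higher than MEA by 1.36 (1.06 to 1.67, n = 3 per group, limma adjusted p = 0.00309).

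COR27, a cold-regulated gene of the clock and light pathways, read 8.62, 9.04 and 8.34 in the reference, 8.96, 8.64 and 8.94 with MEA, and 7.86, 7.91 and 7.50 with EAA. It differed by 0.18 (-0.18 to 0.54) with MEA, and EAA stood at -1.09 (-1.44 to -0.73) against MEA, a difference that passed. The clock gene GI likewise differed by 0.17 (-0.06 to 0.41) with MEA, and EAA was at -0.59 (-0.83 to -0.36) against MEA. UGT78D2, a flavonoid glucosyltransferase, differed by 0.05 (-0.29 to 0.40) with MEA, and EAA was higher than MEA by 0.87 (0.53 to 1.22). For these 4 genes the MEA arrays overlapped the reference arrays or lay close above them, and the EAA arrays overlapped neither group.

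BSMT1 and JAL23 showed the other arrangement. BSMT1 read 6.18, 6.39 and 6.55 with EAA, within the range of the reference, and EAA was higher than MEA by 1.22 (limma adjusted p = 0.015). JAL23 read 8.39, 8.61 and 9.18 with EAA, also near the reference, and EAA was higher than MEA by 1.14 (limma adjusted p = 0.029). AT2G34810 was higher with EAA than with MEA by 0.56 (limma adjusted p = 0.042). In these 3 genes the MEA arrays lay under both other groups without overlap. Both differences of a gene share the 3 MEA arrays, so the direct comparison is no separate evidence that MEA differed from the reference.

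**Figure D5:**
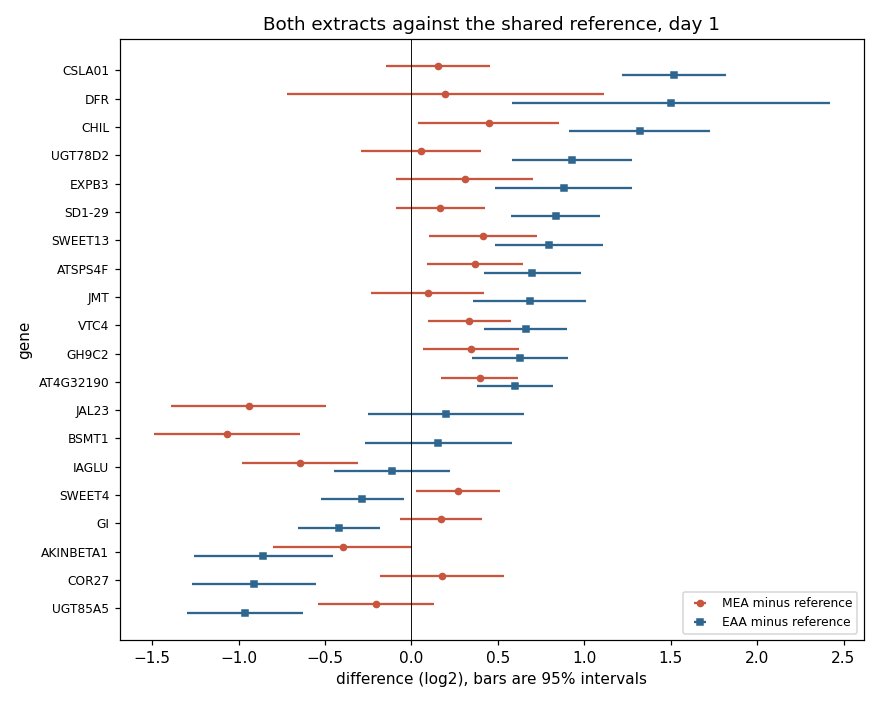
Difference from the shared reference (horizontal axis, log2) with MEA (red circles) and with EAA (blue squares) for 20 genes chosen with earlier EAA results known, bars being 95% intervals. For CSLA01 the MEA point is at 0.15 and the EAA point at 1.52, while for BSMT1 and JAL23 the MEA points are at -1.07 and -0.94 and the EAA intervals span 0.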

How the data were processed

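Values were the log2 signals deposited by the authors for 18 Affymetrix arrays, as judged from their range. MAS5 is named in the submitters' processing notes without a version. How values were normalized and logged is not stated there. No array was rescaled. Of 22746 probe sets that are not controls, 13648 had a mean over the 9 day 1 arrays of at least the 40th percentile (3.98). The 3 group means were modelled in R 4.3.3 by limma 3.58.1 (lmFit, eBayes with trend; 6 residual and 7.00 prior degrees of freedom), and p-values were adjusted by Benjamini-Hochberg. The script was tested on simulated data. Power came from the noncentral t distribution. Array number limits precision. Probe sets were named by the platform annotation and RefSeq (TAIR10.1): 13513 probe sets had 1 gene, 503 several and 8794 none here, and 13436 matched RefSeq. Named were the probe sets past 0.05, the 10 rises and 10 falls of smallest p without overlap, and per list the 2 brightest genes and the 2 with the largest difference. Further genes of the lists, and probe sets past 0.1, were named after their values were seen. Members and lists were chosen with earlier results of these data known. Alternatives changed the arrays in the fit, the filter, the scaling, the variance model, array weights, a replicate block and the threshold.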

Additional observations from a re-analysis of the deposited data

How the results depend on the processing

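The number of probe sets that passed for MEA against the reference (1) was small enough that most alternatives moved it. It was 0 with the spread from all 18 arrays (177 at an unadjusted p under 0.05), 0 from 15 arrays without MEA on day 5 (503) and 0 from the 6 arrays alone (858). It was 5 without a filter, 3 at the 60th percentile, 3 with robust variances, 11 with array weights and 18 at an adjusted p under 0.1. Leaving out 1 array at a time gave 0 to 16. It stayed at 1 with each array centred on its median, with quantile normalization, without the trend and with the filter over 18 arrays. Probe set 264511_at passed in 13 of 21 alternatives, with differences of 1.15 to 1.45. For EAA against MEA the 109 became 3 with 18 arrays, 13 with 15, 171 with 6, 64 without the trend and 259 with array weights, and 8 to 195 without 1 array. For EAA against the reference the 195 became 3 with 18 arrays and 26 with 15, and 44 to 226 without 1 array. The median half-width of 0.27 was 0.39 with 18 arrays and 0.28 to 0.31 without 1 array. The alternatives gave 2878 values of 138 named probe sets, but lost and gained calls were counted only for the 18 at an adjusted p under 0.1. Among the values of these 18, 8 lost a call (all of 264511_at) and 35 gained one. Calls gained by the other named probe sets are not in that count: CML41 and LEA4-5 each passed 0.05 in 1 of 21 alternatives. Samples of the same replicate number in MEA and reference deviated together at 0.03, 0.09 and 0.05. MEA replicates 2 and 3 correlated best with the reference replicate of their own number, and MEA replicate 1 with reference replicate 3. Such low correlations do not settle whether the numbers pair the samples. With a replicate block 12 probe sets passed for MEA, 133 for EAA against MEA and 216 for EAA against the reference. Signal near the low end limits what could be detected.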
